A study of Mus musculus with 8 samples.

Results

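Nuclei that carried 1 or 2 unique RNA molecules (unique molecular identifiers, UMIs) of Sox9 were described here as nuclei with a low Sox9 dose and are called low-Sox9 nuclei. They were chosen from the counts themselves. Nuclei with at least 5000 UMIs were taken from the 2 of 4 barcode libraries that were richest in Sox9, those with 50 or more UMIs of Scgb3a1 and Bpifa1 per 10000 were left out as airway secretory, and those with exactly 1 or 2 Sox9 UMIs were kept. This gave 988 nuclei, 651 in library C and 337 in library D, of 7224 nuclei in the whole matrix and of 4622 nuclei in both libraries that passed the depth and airway limits. Each was paired with a nucleus of the same library that had 0 Sox9 UMIs and a like number of UMIs in all, and every one of the 988 found a partner.

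The nuclei came from alveolarspheres, small cultures grown without serum or feeder cells from mouse type II alveolar (ATII) cells of young and old mice. On day 9 the cultures received an adeno-associated virus of serotype 9 with Sox9 and Cre recombinase (Sox9-Cre) or with Cre alone (Cre), and differentiation medium for type I alveolar (ATI) cells followed for 4 days. Sorted tdTomato-positive cells gave nuclei in which RNA and open chromatin (ATAC) were read together. The labels name 8 samples, with 2 RNA and 2 ATAC samples for Sox9-Cre and as many for Cre, but tie no barcode library and no mouse age to a nucleus, so the counts are treated as 1 sample, no test was possible and libraries are named A to D. All groups share the Cre virus, the reporter sort and the differentiation medium. Whether the 2 RNA samples of a group came from separate cultures is not stated.

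Sox9 is a transcription factor of the SRY-related HMG box family. In the embryonic lung it marks the distal tip progenitors that later give rise to alveolar cells, and in cartilage it acts with its relatives Sox5 and Sox6 on collagen genes. ATII cells make surfactant, ATI cells form the thin gas exchange surface, and cells on the way from ATII to ATI pass through a transitional state rich in simple keratins, Clu and Cdkn1a. A single-nucleus library samples a small part of a nucleus's RNA, so a nucleus with 1 Sox9 UMI and one with 0 can differ in Sox9 by chance of sampling alone, and Sox9 RNA from the virus and from the mouse gene is counted together.

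Low-Sox9 nuclei held 842 Sox9 UMIs in library C, a level of 0.9499 per 10000 UMIs, and 426 in library D, a level of 0.893 per 10000. These levels follow from the rule and are no finding. Nuclei with 1 UMI stood at 0.744 and 0.719 per 10000 in libraries C and D, those with 2 at 1.42 and 1.35, and those with 5 or more at 9.17 and 8.86. The 106 and 56 nuclei with 3 UMIs, just outside the rule, stood at 2.09 and 2.02. Single low-Sox9 nuclei ranged from 0.157 to 3.92 per 10000 in library C and from 0.257 to 3.68 in library D. The rule cuts on UMIs and not on level, so some low-Sox9 nuclei stood above the level of 3-UMI nuclei. The highest airway level inside the rule was 26.8 per 10000 in library C and 31.4 in library D, and the lowest outside it 51.8 and 60.5. The shallowest low-Sox9 nuclei had 5015 and 5186 UMIs, and the deepest of the 37 and 19 nuclei left out for depth had 4892 and 4929. Total depth was 13618399, 9862297, 39803023 and 25073946 UMIs in libraries A to D, and Sox9 in nuclei with at least 5000 UMIs stood at 0.0154, 0.0145, 1.06 and 0.947 per 10000. Of the barcode sequences, 20 occurred in more than 1 library, 3 of them in low-Sox9 nuclei.

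A Sox9 UMI can also reach a nucleus from free RNA, so the share of nuclei with 1 or 2 UMIs was set beside the same share in airway secretory nuclei, a cell type other than the alveolar ones cultured. Whether these nuclei lack Sox9 or took up the virus themselves was not tested. At 5000 randomly drawn UMIs per nucleus, 17.2% of nuclei in library C (95% Clopper-Pearson interval 15.8 to 18.6) and 14.01% in library D (12.4 to 15.7) had 1 or 2 Sox9 UMIs. Airway secretory nuclei of the same libraries had 8.33% (4 of 48, interval 2.32 to 20.0) and 8.51% (4 of 47, interval 2.37 to 20.4). The airway shares are lower, but their intervals are wide and take in those of the other nuclei, and how many low-Sox9 nuclei owe their Sox9 UMI to free RNA was not measured. Over all their UMIs the Sox9 level was 0.111 and 0.151 per 10000 in airway nuclei, against 1.08 and 0.976 in the others. In libraries A and B 0.561% and 0.580% of nuclei had 1 or 2 UMIs. Without drawing UMIs, 22.5% and 19.4% of nuclei in libraries C and D fell in the range, 14.6% and 19.1% of airway nuclei, and 1.03% and 1.45% in libraries A and B. Median depth was 11810 and 12181 UMIs in the nuclei of libraries C and D and 13464 and 17585 in their airway nuclei. Intervals on all values cover counting error only.

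**Figure D1:**
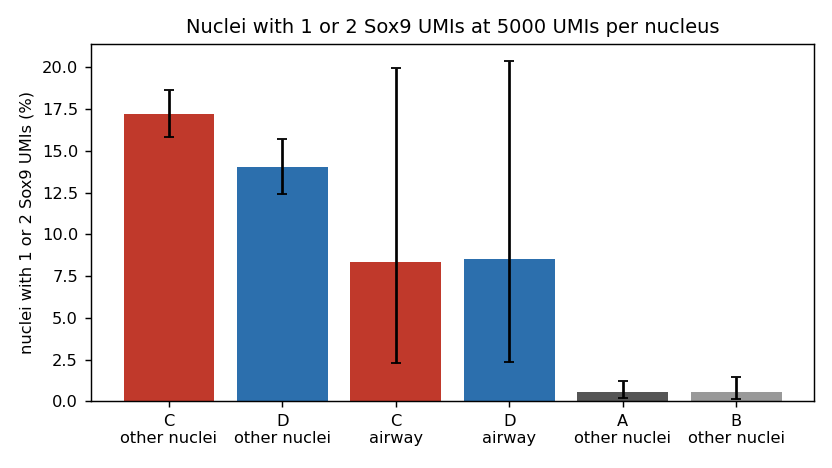
Share of nuclei with 1 or 2 Sox9 UMIs (y axis, %) after drawing 5000 UMIs per nucleus, in nuclei outside the airway limit and in airway secretory nuclei of libraries C and D, and in libraries A and B. Bars are shares and whiskers 95% Clopper-Pearson intervals; libraries C and D stand at 17.2% and 14.01%, their airway nuclei at 8.33% and 8.51% and libraries A and B below 1%.

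After pairing, depth was alike on both sides. Median UMIs were 12492 in low-Sox9 nuclei and 12489 in their partners in library C, and 12888 and 12876 in library D. The median mitochondrial share was 6.005% in low-Sox9 nuclei and 6.03% in partners in library C, and 5.69% and 5.804% in library D. Low-Sox9 nuclei had slightly more genes detected, with medians of 4099 against 4041 in library C and 4246 against 4107 in library D. The median log2 fold over all genes counted was 0.02 in each library.

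Of 6974 genes with at least 200 UMIs in each library, 109 (1.56%) were at least 25% higher in low-Sox9 nuclei in both libraries and 55 (0.789%) were at no more than 0.8 of their partners' level in both, 164 (2.35%) in all. A gene of either kind is called higher or lower below; these are thresholds of size, not tests. The highest genes were Basp1, Cfap43, Sorbs2, Enah, Sox6, Macrod2, Ehf, Elmo1, Greb1l, Plekhh1, Tbc1d4, Tubb2a, Tppp3, St3gal4 and Fosb. Among the lowest were Cox6a2, Pmp22, Hecw1, Ces1g, Nnat, Fbln5, Gm19990, 9330188P03Rik, Pck2, Adamtsl1, Lrg1, Fabp5, Cav1 and Igfbp7. The folds of the 15 highest genes lay between 1.66 and 2.93 over both libraries, and those of the 15 lowest between 0.443 and 0.710.

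**Figure D2:**
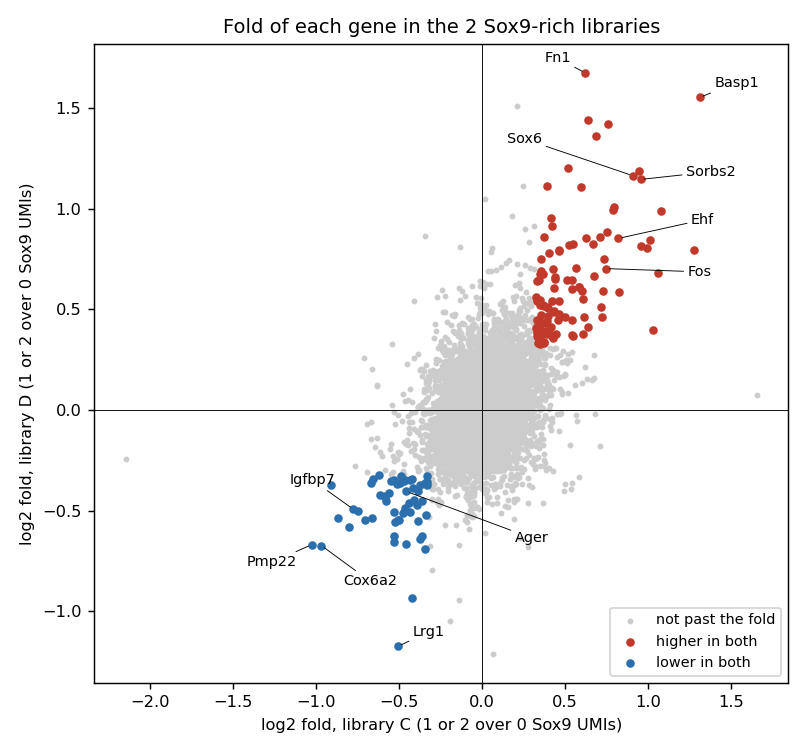
Log2 fold of low-Sox9 nuclei over paired 0-UMI nuclei in library C (x axis) and library D (y axis) for 6974 genes, 1 point per gene. Red points are the 109 genes higher in both libraries and blue points the 55 lower in both; Basp1 and Fn1 stand at the upper right and Pmp22, Cox6a2 and Lrg1 at the lower left.

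The transcription factors Sox6 and Ehf were among the 15 highest genes. Sox6, the partner of Sox9 in cartilage, had 0.297 UMIs per 10000 in low-Sox9 nuclei and 0.158 in partners in library C, and 0.390 and 0.174 in library D. The folds were 1.88 (95% interval 1.52 to 2.32) and 2.24 (1.72 to 2.94). Sox6 was seen in 15.1% of low-Sox9 nuclei against 8.14% of partners in library C and in 19.6% against 12.5% in library D, so most nuclei on both sides showed no Sox6 UMI. Ehf, an epithelial ETS factor, had 1.04 UMIs per 10000 in low-Sox9 nuclei and 0.586 in partners in library C, and 1.249 and 0.692 in library D. Its folds were 1.77 (1.58 to 1.97) and 1.80 (1.57 to 2.07), nearly the same in both libraries. Of 14 other Sox factors 3 passed the minimum of 200 UMIs, and Sox6 was the 1 called higher. Sox5, the other cartilage partner, had folds of 1.08 and 1.02, and Sox4, which is broadly expressed in developing epithelia, 0.975 and 1.19.

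Basp1, a membrane-bound protein that organises cortical actin and can also act as a transcriptional corepressor, had the highest fold of all genes counted by the weaker of both libraries. It had 0.244 UMIs per 10000 in low-Sox9 nuclei and 0.0983 in partners in library C, and 0.560 and 0.191 in library D. The folds were 2.48 (1.92 to 3.22) and 2.93 (2.30 to 3.76). In library C 5 nuclei held 27.3% of the Basp1 UMIs of low-Sox9 nuclei and in library D 26.6%. The 5 richest partners held a larger share of their side's Basp1 UMIs. Leaving out the 5 richest nuclei on each side therefore raised the folds, to 2.96 and 3.56. Those of Sox6, treated the same way, were 1.89 and 2.37. Sorbs2, an adaptor between actin and junctions, had 0.755 UMIs per 10000 in low-Sox9 nuclei and 0.390 in partners in library C, and 0.677 and 0.306 in library D, folds of 1.94 and 2.21. Enah, an actin elongation factor, had folds of 1.92 and 2.27, and Elmo1, which acts with DOCK proteins in Rac activation, 1.94 and 1.76. Tubb2a, a beta tubulin, had 1.16 UMIs per 10000 in low-Sox9 nuclei and 0.669 in partners in library C, and 1.28 and 0.646 in library D, folds of 1.73 and 1.99. Other high genes were St3gal4, a sialyltransferase (folds of 1.69 and 1.84), Tbc1d4, a regulator of glucose transporter traffic (2.42 and 1.73), and Greb1l, needed for kidney and inner ear development (1.99 and 1.75).

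A peak of open chromatin over the start region of each of 3 genes was past the fold threshold in both libraries. Each of these peaks had too few counts to be included among the peaks counted below. For Sox6 the few counts of library D were nearly equal in low-Sox9 nuclei and partners, so no difference is shown there. The RNA of each gene was higher in low-Sox9 nuclei or, for Col11a2, had more UMIs there. The start regions of these 3 genes are shown for these reasons, a choice made from these counts. They run from 250 bases before to 50 after an annotated start, 5′ to 3′ on the gene's strand, from RefSeq on GRCm38.p6: Sox6 at chr7:115824661-115824960 on the minus strand, Basp1 at chr15:25413715-25414014 on the minus strand and Col11a2 at chr17:34038888-34039187 on the plus strand. Capitals mark ACAAT and ACAAAG, short sequences of the kind that Sox proteins bind, on either strand; both begin with ACAA, and no match overlaps another. The Sox6 start shown is an internal one, downstream of the first start listed. The peak at the outer end of Sox6, chr7:116039849-116040699, did not stand higher, with 88 counts in low-Sox9 nuclei and 113 in partners in library C and 78 and 85 in library D. The Col11a2 start shown also lies downstream of the outer end of its gene. The Col11a2 peak overlaps the region shown but ends before that start.
Sox6: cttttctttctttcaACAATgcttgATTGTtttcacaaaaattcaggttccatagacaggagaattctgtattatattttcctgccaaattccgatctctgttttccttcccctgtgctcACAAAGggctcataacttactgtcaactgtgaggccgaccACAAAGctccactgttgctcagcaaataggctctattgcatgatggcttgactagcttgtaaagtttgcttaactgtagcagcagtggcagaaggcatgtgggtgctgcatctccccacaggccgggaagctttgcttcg
Basp1: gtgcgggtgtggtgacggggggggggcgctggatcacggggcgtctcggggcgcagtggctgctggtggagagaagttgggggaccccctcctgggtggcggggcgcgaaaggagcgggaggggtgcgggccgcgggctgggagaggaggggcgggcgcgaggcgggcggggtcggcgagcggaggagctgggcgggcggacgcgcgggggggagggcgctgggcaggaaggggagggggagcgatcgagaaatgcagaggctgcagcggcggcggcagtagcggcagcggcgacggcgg
Col11a2: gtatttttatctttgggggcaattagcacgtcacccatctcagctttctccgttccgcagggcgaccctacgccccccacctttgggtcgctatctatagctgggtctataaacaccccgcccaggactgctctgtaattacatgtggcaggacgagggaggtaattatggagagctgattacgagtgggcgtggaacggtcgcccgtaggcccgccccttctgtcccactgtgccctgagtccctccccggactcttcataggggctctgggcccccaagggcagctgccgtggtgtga
The Sox6 window held 2 ACAAT and 2 ACAAAG matches, and the other windows held 0. Of 27025 genes in the table, 43.4% held at least 1 match in a window of this length at the first start listed, which for Sox6 is not the one shown. The share was 31.0% of the 84 higher genes found in the table, 22.0% of the 41 lower genes found there and 28.6% of 5593 genes counted, so the higher genes stood close to all genes counted. A match is a description of letters and not a shown binding site.

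Of the 22 cartilage genes in the list, 3 passed the minimum of 200 UMIs (Sox6, Sox5 and Matn4), and Sox6 was the 1 called higher. Their median log2 fold was 0.12 in library C and 0.03 in library D, against 0.02 over all genes. The structural cartilage collagens lay below the minimum, so their values rest on few molecules. Col27a1, a fibrillar collagen, had 53 UMIs in low-Sox9 nuclei and 8 in partners in library C, and 32 and 6 in library D, ratios of 6.61 (3.12 to 16.1) and 5.33 (2.20 to 15.6). Col11a2, the alpha 2 chain of type XI collagen, had 25 and 11 in library C and 15 and 5 in library D. Col9a3 had 37 UMIs in low-Sox9 nuclei and 7 in partners in library C, and 13 and 9 in library D. Col27a1 had more UMIs in low-Sox9 nuclei in both libraries. The interval of the Col9a3 ratio lay above 1 in library C (2.32 to 14.03) and took in 1 in library D (0.571 to 3.83). These intervals cover counting error only and not the spread between nuclei, and the difference between the libraries was not tested. Col2a1, the main cartilage collagen, had 8 and 5 UMIs in library C and 11 and 1 in library D. Col27a1 was seen in 4.45% and 4.15% of low-Sox9 nuclei, so nearly all of them showed none. In library C 5 nuclei held 41.5% of the Col27a1 UMIs and in library D 65.6%. Acan, which encodes the core protein of cartilage proteoglycan, had 3 and 0 UMIs in library C and 0 on both sides in library D.

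Immediate early genes, which cells switch on within minutes of a stimulus, formed the list with the most higher members. Of 12 counted members of 15, 5 were higher (Fos, Fosb, Egr1, Atf3 and Ier2) and 0 lower, beside 1.56% higher among all genes. The list's median log2 fold was 0.25 in library C and 0.42 in library D. Fos had 3.00 UMIs per 10000 in low-Sox9 nuclei and 1.79 in partners in library C, and 2.65 and 1.63 in library D, folds of 1.68 (1.57 to 1.78) and 1.63 (1.49 to 1.78). Egr1, a zinc finger factor, had 2.01 and 1.26 in library C and 1.962 and 1.24 in library D. Both genes were higher to about the same extent in both libraries. Jun, the partner of Fos in AP-1, had folds of 1.12 and 1.30 and was not called. Summed over the list, low-Sox9 nuclei stood at 22.8 per 10000 and partners at 18.3 in library C, and at 24.1 and 17.9 in library D. The summed level of mitochondrial genes, Malat1 and Neat1, a sign of RNA quality, was 1156 and 1103 per 10000 in library C and 1098 and 1070 in library D; its part in the result was not tested.

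Of 21 counted ATI markers out of 25 listed, 5 were lower (Ager, Clic5, Scnn1g, Cav1 and Pmp22) and 0 higher, beside 0.789% lower among all genes. The median log2 fold was -0.42 in library C and -0.25 in library D. The list summed to 96.4 UMIs per 10000 in low-Sox9 nuclei and 123 in partners in library C, and to 98.6 and 118 in library D. Ager, a receptor of the immunoglobulin family and the classic ATI marker, had 20.2 UMIs per 10000 in low-Sox9 nuclei and 27.7 in partners in library C, and 21.0 and 27.8 in library D, folds of 0.728 (0.715 to 0.743) and 0.755 (0.736 to 0.775). Pmp22, a membrane protein of epithelial junctions and myelin, had folds of 0.492 and 0.629, and Cav1, the main protein of caveolae, 0.595 and 0.705. Scnn1g, the gamma subunit of the epithelial sodium channel, had 0.669 and 0.732. Aside from the marker list, Igfbp7, a secreted binding protein of the insulin-like growth factor system, had 1.31 UMIs per 10000 in low-Sox9 nuclei and 2.24 in partners in library C, and 1.56 and 2.19 in library D. Its folds were 0.585 and 0.710. Cox6a2, a subunit of cytochrome c oxidase, had folds of 0.511 and 0.627, and Fbln5, an elastic fibre protein, 0.632 and 0.690.

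Few transitional and ATII markers were called. Of 20 counted transitional markers 0 were called in either direction, with a median log2 fold of -0.15 in library C and 0.17 in library D. Their summed level was 143 per 10000 on both sides in library C, and 179 in low-Sox9 nuclei against 147 in partners in library D. Clu, a secreted chaperone, had 41.3 UMIs per 10000 in low-Sox9 nuclei and 34.6 in partners in library C, and 47.7 and 29.0 in library D, folds of 1.20 and 1.65. Cdkn1a, the cell cycle inhibitor p21, had folds of 1.21 and 1.18. Of 21 counted ATII markers Fabp5 was the 1 called lower and 0 were higher, with medians of 0.05 and -0.21. With all 0-UMI nuclei reweighted over 20 depth bins instead of pairs, the Fabp5 folds were 0.907 and 0.854, short of the threshold. The ATII list summed to 537 UMIs per 10000 in low-Sox9 nuclei and 595 in partners in library C, and to 514 and 627 in library D, folds of 0.902 and 0.819 beside 0.781 and 0.836 for the ATI list. Sftpc, which encodes surfactant protein C and had a UMI in every nucleus on both sides, had 393 UMIs per 10000 in low-Sox9 nuclei and 449 in partners in library C, and 384 and 478 in library D. Its folds of 0.875 and 0.804 did not pass the threshold.

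Among the other lists few members were called. Gdf15, a stress-induced cytokine, was the 1 higher of 15 p53 and senescence genes, with folds of 1.77 and 1.499. Of 3 counted mesenchymal transition genes Fn1 was higher and Sparc lower. Fn1, which encodes fibronectin, had 0.485 UMIs per 10000 in low-Sox9 nuclei and 0.315 in partners in library C, and 1.05 and 0.329 in library D, folds of 1.54 and 3.19. It was seen in 16.3% of low-Sox9 nuclei and 14.5% of partners in library D, where 5 low-Sox9 nuclei held 43.7% of the UMIs of their group. Sparc, a matrix-binding glycoprotein, had folds of 0.667 and 0.745. None of the 13 distal tip and FGF response genes was called, although their summed level was 57.8 per 10000 in low-Sox9 nuclei and 50.0 in partners in library C, and 63.0 and 44.97 in library D; Clu is a member and makes up most of that sum. None of 16 core lung transcription factors was called, and Nkx2-1, which maintains alveolar identity, had folds of 0.895 and 0.869. Counts of 0 in both directions were also found for 10 YAP target genes, 14 fatty acid synthesis, 15 cholesterol, 6 MHC class II, 5 WNT, 11 BMP and TGF-beta, 3 Notch, 2 interferon, 1 cell cycle, 13 basement membrane, 8 EGF family, 9 hypoxia and 10 RNA quality genes counted.

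Summed markers of other cells differed between low-Sox9 nuclei and partners for several lists. The summed level of ciliated markers was 1.245 per 10000 in low-Sox9 nuclei and 0.461 in partners in library C, and 2.10 and 0.654 in library D, with 0 of 10 members undetected on any side. Tppp3, a tubulin-binding protein of ciliated cells, and Cfap43, an axonemal protein, were among the highest genes, yet 9.52% of low-Sox9 nuclei and 10.3% of partners in library C had a Tppp3 UMI, and 5 nuclei held 63.2% of its UMIs there and 72.9% in library D. Without nuclei at 10 or more ciliated UMIs per 10000, a limit chosen after seeing the data, 646 and 332 pairs were left, and the folds were 0.720 and 1.11 for Tppp3 and 1.09 and 1.18 for Cfap43. Sox6 then had 1.88 and 2.23, Ehf 1.74 and 1.81 and Basp1 2.27 and 2.82. Enah then had 1.61 and 1.88 and Sorbs2 1.61 and 1.81, less than their folds over all pairs in both libraries. Airway secretory markers, without those the rule used, summed to 2.37 in low-Sox9 nuclei and 2.43 in partners in library C and 5.08 and 5.51 in library D. Cbr2, a carbonyl reductase of club cells, was lower with folds of 0.654 and 0.746. With all 0-UMI nuclei reweighted over 20 depth bins instead of pairs, the Cbr2 folds were 0.774 and 0.983, past the threshold in library C only. Basal markers, 30 UMIs in low-Sox9 nuclei and 85 in partners in library C and 9 and 20 in library D, summed to 0.0338 and 0.0960 per 10000 in library C and 0.0189 and 0.0419 in library D, lower in both. Endothelial markers summed to 0.0429 and 0.0237 in library C and 0.0859 and 0.0252 in library D, higher in both. These endothelial sums rest on few molecules, 38 UMIs in low-Sox9 nuclei and 21 in partners in library C and 41 and 12 in library D. Mesenchymal markers summed to 0.0485 in low-Sox9 nuclei and 0.0203 in partners in library C but to 0.0293 and 0.162 in library D, and immune markers to 0.116 and 0.0949 in library C and 0.0796 and 0.0818 in library D. Over all 0-UMI nuclei, unpaired, basal markers stood at 0.0489 in library C and 0.0279 in library D. Mesenchymal markers there stood at 0.0152 and 0.0545, and endothelial markers at 0.0354 and 0.0425. The basal and mesenchymal sums of the partners were thus above those of all 0-UMI nuclei, and the endothelial sums below. Of 6 basal, 10 mesenchymal, 7 endothelial and 11 immune markers, 2, 5, 2 and 3 were at 0 in low-Sox9 nuclei of library C and 2, 6, 5 and 4 in those of library D. The part of these sums in the other results was not tested.

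Among low-Sox9 nuclei, many genes differed further from 0-UMI nuclei at 2 Sox9 UMIs than at 1. These steps use all nuclei at a step, unpaired, and their median depth was 11160, 12125, 13342, 13122 and 14812 UMIs for 0, 1, 2, 3 or 4, and 5 or more Sox9 UMIs in library C, with 1883, 460, 191, 167 and 187 nuclei. In library D it was 11766, 12552, 14171, 13007 and 13753, with 1191, 248, 89, 93 and 113 nuclei. Ehf stood at 0.608, 0.904, 1.34, 1.82 and 3.62 UMIs per 10000 along these steps in library C and at 0.632, 1.09, 1.66, 1.81 and 3.16 in library D. It was higher at each step than at the one before in both libraries, although at 2 UMIs in library D its interval (1.45 to 1.90) took in the level at 3 or 4. Sox6 stood at 0.140, 0.273, 0.351, 0.673 and 2.34 in library C and at 0.184, 0.386, 0.401, 0.644 and 2.25 in library D. Most of its range lay between 3 or 4 and 5 or more UMIs, so at 1 or 2 UMIs it was far below the level of the Sox9-high nuclei. Ager stood at 27.7, 20.8, 18.8, 15.2 and 7.61 in library C and at 29.2, 21.1, 20.7, 13.2 and 11.0 in library D, lower at each step, with the levels at 1 and 2 UMIs in library D (20.6 to 21.6 and 19.9 to 21.5) not apart. Basp1 was not in order in library D, with 0.847 at 2 UMIs and 0.359 at 3 or 4. Others of the highest genes did not follow the steps. From 0 to 5 or more UMIs, Tppp3 went from 0.148 to 0.0407 in library C and from 0.292 to 0.0282 in library D. Cfap43 went from 0.104 to 0.102 in library C and from 0.187 to 0.0791 in library D. Macrod2 in library D stood at 0.368 at 0 UMIs, 1.22 at 2 and 0.452 at 5 or more.

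**Figure D3:**
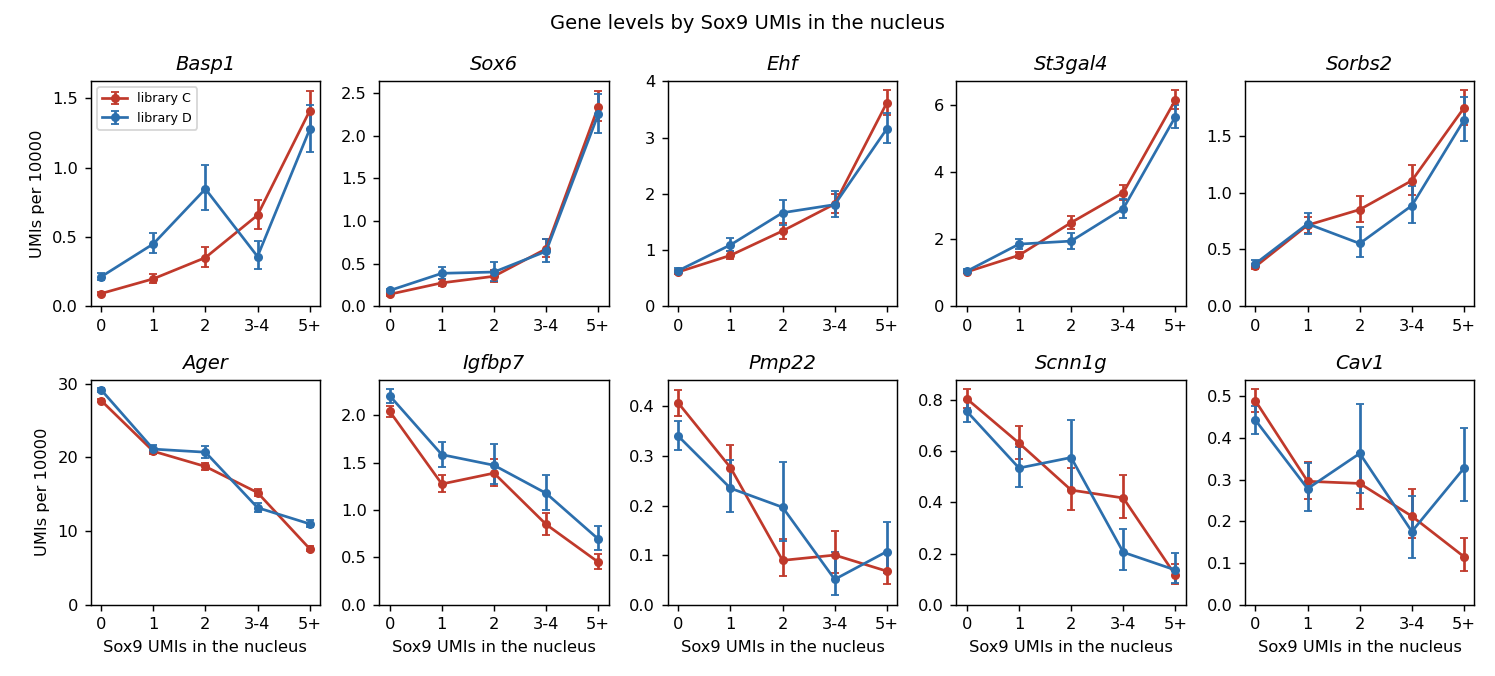
Level of 10 genes (y axes, UMIs per 10000 UMIs) in nuclei with 0, 1, 2, 3 or 4, and 5 or more Sox9 UMIs (x axes) in libraries C and D. Points are levels summed over the nuclei of a step and whiskers exact Poisson 95% intervals; Ehf was higher and Ager lower at each step, while most of the range of Sox6 lay at 5 or more UMIs.

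Genes differed in where along the steps they moved. Fos stood at 2.03, 3.00, 3.02, 3.27 and 3.88 UMIs per 10000 in library C, so that most of its difference was present at 1 UMI, and at 1.67, 2.44, 3.19, 2.98 and 3.29 in library D. Egr1 stood at 1.40, 2.03, 1.962, 2.02 and 2.26 in library C and at 1.28, 1.74, 2.54, 2.09 and 2.16 in library D. From 1 UMI to 5 or more both genes differed less than Ehf or Sox6 did. The cartilage collagens did the reverse: Col9a3 stood at 0.00928, 0.0162, 0.101, 0.0801 and 0.610 in library C and at 0.00824, 0.0116, 0.0680, 0.0512 and 0.508 in library D. At 1 UMI the intervals of Col9a3 took in the level of the 0-UMI nuclei in both libraries. Col27a1 stood at 0.00675, 0.0421, 0.101, 0.136 and 0.580 in library C and at 0.0133, 0.0522, 0.106, 0.124 and 0.424 in library D, above the 0-UMI nuclei from 1 UMI on.

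Between the 1-UMI and 2-UMI nuclei, 61 of the 109 higher genes (56.0%) stood higher at 2 UMIs in both libraries and 9 (8.26%) lower. Of the 55 lower genes, 27 (49.1%) stood lower at 2 UMIs in both and 5 (9.09%) higher. Over all 6974 genes 27.2% stood higher at 2 UMIs in both libraries and 23.9% lower. Both steps entered the comparison that chose the genes, so these shares are a description. Among the 15 highest genes, 12 stood higher at 2 than at 1 in both libraries and 1 lower. Among the 15 lowest, only 5 (33.3%) stood lower at 2 in both libraries and 1 higher.

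Low-Sox9 nuclei were more often led by transitional markers. Each nucleus was given the list (ATII, ATI or transitional) whose summed level was highest relative to its mean in the library, at 5000 drawn UMIs; this is a range cut from a score and not a cell type. Transitional markers led 34.9% of low-Sox9 nuclei (31.2 to 38.7) and 27.3% of partners (24.0 to 30.9) in library C, and 41.8% (36.5 to 47.3) and 26.1% (21.5 to 31.1) in library D. ATI markers led 27.6% and 33.5% in library C and 24.0% and 32.6% in library D, and ATII markers 37.5% and 39.2% in library C and 34.1% and 41.2% in library D. The share is relative and can be higher with no higher level of transitional markers: in library C their sum was 143 per 10000 on both sides, while the ATI and ATII sums were lower in low-Sox9 nuclei. Along 0, 1, 2, 3 or 4, and 5 or more Sox9 UMIs it was 24.0%, 31.1%, 44.0%, 52.1% and 72.7% in library C and 26.2%, 41.5%, 42.7%, 63.4% and 72.6% in library D. Between 9.20% and 13.98% of low-Sox9 and partner nuclei had their top lists within 25% of each other. Without them transitional markers led 33.0% of low-Sox9 nuclei (29.1 to 37.0) and 25.9% of partners (22.3 to 29.7) in library C, with intervals that overlap, and 42.2% (36.6 to 47.9) and 24.4% (19.6 to 29.7) in library D, with intervals that do not.

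**Figure D4:**
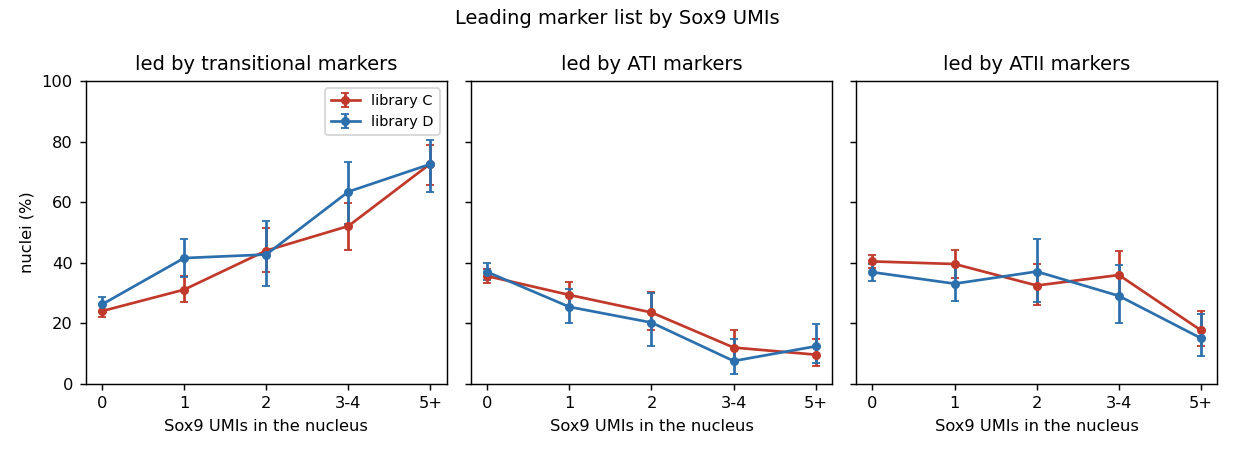
Share of nuclei (y axis, %) led by transitional, ATI or ATII markers, by Sox9 UMIs in the nucleus (x axis), in libraries C and D, with 95% Clopper-Pearson intervals. The transitional-led share was 24.0% and 26.2% at 0 UMIs and 72.7% and 72.6% at 5 or more, with 1-UMI and 2-UMI nuclei in between.

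When partners were also taken from the same leading list, 648 and 336 pairs remained, with 100 genes higher and 50 lower, of which 56 and 29 were among those above. Sox6 had folds of 2.08 in library C and 1.43 in library D, Ehf 1.54 and 1.73, Basp1 2.31 and 2.24 and Elmo1 2.05 and 1.963. Ager had 0.804 and 0.821 and Cav1 0.654 and 0.869, neither of which passed the threshold any more, and Pmp22 had 0.584 and 0.665. These genes are ATI markers and entered the score that set the leading list, so pairing inside it can even out their levels by design. In this pairing 4 ATI markers were lower and 3 immediate early genes higher. Fn1 had 1.41 and 1.49, so its fold in library D was less than the 3.19 above. Fosb had 1.54 and 1.18, Fos 1.54 and 1.37 and Gdf15 1.37 and 0.980. Within ATI-led pairs Sox6 had 63 UMIs in low-Sox9 nuclei and 21 in partners in library C and 30 and 11 in library D. Within ATII-led pairs it had 16 and 16 in library C and 14 and 10 in library D, and within transitional-led pairs 182 and 88 in library C and 141 and 108 in library D. The folds of Sox6 were 2.99 and 2.72 in ATI-led, 0.997 and 1.40 in ATII-led and 2.06 and 1.30 in transitional-led pairs, so in library D the ATII-led fold, which rests on few UMIs, was above the transitional-led one. Most Basp1 UMIs lay in transitional-led pairs, with 179 and 70 in library C and 242 and 97 in library D. In ATII-led pairs Basp1 had 24 and 15 in library C and 16 and 4 in library D. In ATI-led pairs it had 10 and 7 in library C but 9 and 18, the opposite way, in library D. Differences between the strata were not tested.

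Open chromatin of the same nuclei was read as counts in peaks over a gene and 2000 bp on either side, per 10000 counts in peaks. Median ATAC counts were 11011 in low-Sox9 nuclei and 10306 in partners in library C, and 16122 and 15302 in library D. Sox9 itself had 856 counts in low-Sox9 nuclei and 402 in partners in library C, a fold of 2.04 (1.81 to 2.30), and 446 and 266 in library D, a fold of 1.78 (1.53 to 2.08). The rule used Sox9 RNA and no ATAC count. The Sox9 virus carries Sox9 sequence, and whether ATAC counts here came from the virus or from the chromosome was not tested. Of the 3 peaks over Sox9 on chromosome 11, chr11:112782331-112783169 had 285 counts in low-Sox9 nuclei and 148 in partners in library C and 159 and 103 in library D. The next peak, chr11:112783490-112784356, had 187 and 79 in library C and 97 and 61 in library D, and chr11:112784666-112785551 had 384 and 175 in library C and 190 and 102 in library D. All 3 had more counts in low-Sox9 nuclei in both libraries. Nuclei with 0 Sox9 UMIs of libraries C and D had 0.585 and 0.469 Sox9 ATAC counts per 10000, against 0.106 and 0.111 in those of libraries A and B.

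**Figure D5:**
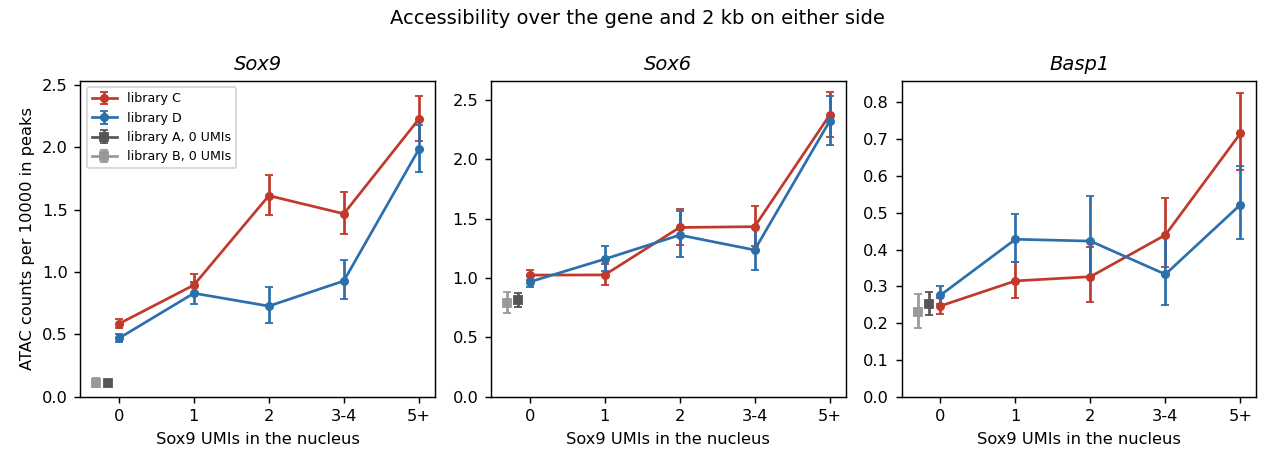
ATAC counts per 10000 counts in peaks (y axes) over Sox9, Sox6 and Basp1 with 2 kb on either side, by Sox9 UMIs in the nucleus (x axes), with exact Poisson 95% intervals. Circles are libraries C and D, squares the 0-UMI nuclei of libraries A and B; Sox9 stood at 0.585 and 0.469 in 0-UMI nuclei of libraries C and D and at 2.22 and 1.98 at 5 or more UMIs.

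Few other windows moved. Of 14389 gene windows with at least 200 counts in each library, 21 (0.146%) were higher and 12 (0.0834%) lower by the same thresholds as for RNA, and of 15404 peaks 51 (0.331%) were higher and 31 (0.201%) lower. Of the 109 genes with higher RNA, 104 windows were counted, 2 were called higher, and 43 (41.3%) stood above 1 in both libraries against 23 (22.1%) below. Of the 55 genes with lower RNA, 51 were counted, 0 were called lower, and 32 (62.7%) stood below 1 in both libraries against 4 (7.84%) above. Over all genes counted in RNA 26.1% stood above 1 in both libraries and 28.1% below. Basp1 was called, with 243 counts in low-Sox9 nuclei and 180 in partners in library C, a fold of 1.29 (1.06 to 1.58), and 237 and 159 in library D, a fold of 1.59 (1.29 to 1.95). With 10000 bp on either side its folds were 1.243 and 1.455, just short of the threshold in library C. Its start-site peak, chr15:25413210-25413974, had folds of 1.32 and 1.80 but too few counts to be included among the peaks counted. Sox6 had window folds of 1.099 and 1.20 and Ehf 1.103 and 1.34. Along 0, 1, 2, 3 or 4, and 5 or more Sox9 UMIs the Sox6 window stood at 1.02, 1.03, 1.43, 1.43 and 2.37 counts per 10000 in library C and at 0.967, 1.16, 1.36, 1.24 and 2.32 in library D. The peak over the Sox6 start shown above had 19 counts in low-Sox9 nuclei and 4 in partners in library C and 5 and 4 in library D. The peak that overlaps the Col11a2 region shown, chr17:34038259-34039081, had 55 and 20 in library C and 41 and 23 in library D, folds of 2.63 (1.55 to 4.64) and 1.90 (1.11 to 3.31). These Sox6 and Col11a2 peaks, too, had too few counts to be included among the peaks counted. The Ager window had folds of 0.858 and 0.852, on the same side as its RNA and short of the threshold.

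Where Sox9 was rare, in libraries A and B, 21 nuclei had 1 or 2 Sox9 UMIs. They had 5 Sox6 UMIs and 0 in their partners, 15 and 2 of Basp1, 43 and 3 of Sorbs2, 34 and 15 of Ehf, 65 and 19 of Egr1 and 72 and 67 of Fos. Other genes went the opposite way from libraries C and D: of the highest, Macrod2 had 8 and 19, Tppp3 1 and 5 and Greb1l 4 and 6, and of the lowest, Igfbp7 had 178 and 135, Fbln5 35 and 11 and Fabp5 24 and 10, with more UMIs in low-Sox9 nuclei also for Lrg1, Nnat, Hecw1 and Pmp22. These values rest on few nuclei, of which any 1 can decide a gene. Nuclei with 0 Sox9 UMIs had 0.140 and 0.184 Sox6 UMIs per 10000 in libraries C and D, against 0.0367 and 0.0540 in libraries A and B. For Ehf the levels were 0.608 and 0.632 in libraries C and D, against 0.435 and 0.492 in libraries A and B.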

How the data were processed

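The files deposited by the authors hold whole-number UMI counts for 32285 genes and ATAC counts for 116068 peaks in the same 7224 nuclei, all samples pooled and nothing normalized. Per the submitters' processing notes, the tools were Signac 1.10.0, Seurat 4.3.0 and Cell Ranger 6.0.1 and the builds mm10 and GRCm38; which step used which, the peak caller and the nucleus filter are not stated there. Doublets were not called, and any that were deposited are still included; 1 alternative drops the deepest 5% of nuclei. Libraries A to D are the barcode prefixes in sorted order. Gene positions came from RefSeq on GRCm38.p6, found for 81.4% of genes.

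Low-Sox9 nuclei were paired without replacement, deepest first, with the nearest 0-UMI nucleus of the library within 0.05 log10 UMIs. Counts were summed per side and scaled to 10000; counts below 3 were set to 3 in folds. Intervals are exact Poisson for levels, Clopper-Pearson for shares and conditional binomial for folds, at 95%, and cover counting error only. No test was run, since nuclei are not replicates; the scripts were tested on simulated data.

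Members and lists (29 lists, 434 entries, 433 in the matrix) were chosen with earlier results of these data known. Genes named are the 15 highest and 15 lowest by the weaker library and up to 4 members of each list plus its most abundant; Clic5, Ier2 and the 5-gene counts were named after their values were seen, and 1 gene that the rule takes in is not reported here. Files that list multiplexing oligos of other samples were not used. Python 3.11.15, numpy 2.4.6, scipy 1.17.1, pandas 2.3.3 and matplotlib 3.10.9 were used.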

Additional observations from a re-analysis of the deposited data

How the results depend on the processing

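Counts of genes higher and lower were 109 and 55 with pairing on depth. They were 168 and 100 with no pairing, 61 and 31 for nuclei with exactly 1 Sox9 UMI, 84 and 46 for those with exactly 2, 378 and 130 at a minimum of 50 UMIs, 44 and 25 at 500, 27 and 2 at a fold of 1.5, 499 and 333 in library C alone and 425 and 219 in library D alone, where 1 library has to pass. Lower ATI markers numbered 8 with no pairing, 1 with exactly 2 UMIs, 3 at 500 UMIs, 1 at a fold of 1.5 and 13 in library C alone. Higher immediate early genes numbered 3 with pairing inside the leading list, 3 at a fold of 1.5 and 8 in library D alone. Reweighting over 20 depth bins gave 95 and 54, of which 68 and 39 were among the main ones.

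Of the 30 highest and lowest genes, Fabp5 turned to a mean log2 fold of 0.018 with pairing inside the leading list and Tppp3 to -0.16 without nuclei high in ciliated markers; the others kept their direction in that mean over both libraries under each of 18 alternatives. Without the 5 nuclei with the most UMIs of a gene on each side, an alternative chosen after seeing the data, 81 genes were higher and 57 lower, Tppp3 had folds of 0.824 and 1.56, and Nnat, a membrane proteolipid, 0.665 and 1.07. Scaling without stress and mitochondrial genes, also chosen after seeing the data, gave 115 and 51. The share of nuclei with 1 or 2 Sox9 UMIs was 22.5% and 19.4% without drawing UMIs. Counting each peak as 0 or 1 gave a Sox9 ATAC fold of 1.53 in library D. No paired analysis was possible because barcodes carry no replicate number; the pairs used here join nuclei of a library by depth and not replicates. Depth limits the cartilage collagens, and nuclei with 0 Sox9 UMIs cannot be shown to lack Sox9 RNA.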
